A study of Mus musculus with 12 samples.

Results

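Unselected Schwann cells (the allSC gate) were compared with cells of the gate enriched in not-myelinating Schwann cells (the nmSC gate). The comparison used 8 of the 12 libraries of the series, 4 from each gate, joined in pairs by the number of the mouse in the labels, and asked which genes and functions separate a mixed population from its not-myelinating fraction. The other 4 libraries, from the gate enriched in myelinating Schwann cells (mSC), share the estimate of the spread and are given beside the others. All libraries came from sciatic nerves of P5 mice that carried P0Cre, ReYFP and βAct-DsRed, each in a single copy, so no gate came from animals without these transgenes. P0Cre is expressed from the promoter of the P0 gene of Schwann cells and recombines the ReYFP reporter, so that Schwann cells are marked by eYFP, while βAct-DsRed marks all cells. From the cell suspension of each mouse, the allSC gate took all eYFP-positive cells, the nmSC gate the cloud of eYFP-positive cells with low side scatter (SSC-A, a measure of granularity) and the mSC gate the cloud with high side scatter. The allSC gate therefore takes cells of the kind that the nmSC gate takes, and differences between these gates are those between a mixture and a part of it. In such bulk libraries, fewer cells of a type and less RNA per cell cannot be told apart. Of each gate 2 samples came from male and 2 from female mice, which the labels do not tell apart.

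Before birth and in the first days after it, immature Schwann cells divide while they separate axons from each other. A cell that has taken up a single large axon leaves the cell cycle and wraps it with myelin under the transcription factors Sox10 and Egr2, and cells that keep several small axons do not myelinate. Myelin is rich in cholesterol and in galactolipids, so a myelinating cell makes sterols, long fatty acids and sphingolipids together with the myelin proteins, while immature cells carry adhesion molecules and receptors such as Ncam1, L1cam and Ngfr.

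The allSC libraries held between 10092477 and 14482001 counted reads and the nmSC libraries between 8180927 and 13077387. At this depth 3 counts, taken as the smallest level that can be told from 0, were between 0.207 and 0.367 CPM (counts relative to the library's total), a limit from counting alone. The most counted 50 genes took 23.0% ± 0.655 (SD, n = 4) of the reads in allSC and 18.5% ± 0.449 (SD, n = 4) in nmSC (p = 0.0286, two-sided exact permutation test, the smallest p that 4 libraries against 4 allow). The share was higher in allSC in 4 of 4 mice, and with labels exchanged only within mice the exact permutation p was 0.125, the smallest that 4 pairs allow. Libraries were scaled by the TMM method of edgeR, which sets library sizes so that most genes do not differ, and CPM values below are on this scale. The nmSC library of mouse 1 was the shallowest and stood apart in genes of the ribosome, as described with that list.

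Of 18597 genes tested, 1774 (9.54%) differed between allSC and nmSC at an adjusted p under 0.05 (the quasi-likelihood test of edgeR, with Benjamini-Hochberg adjustment and the mouse as a block, the rule for every call below). The genes higher in allSC were 1300 (6.99%) and those higher in nmSC 474 (2.55%). A fit of only the 8 libraries compared, which estimates the spread without mSC, called 1607 and 962. The changes were of unequal size in both directions. Among the genes higher in allSC the median log2 fold change was 0.81 in size, 471 genes changed at least 2-fold and 29 at least 8-fold. Among those higher in nmSC the median was 0.72 in size, 40 genes changed at least 2-fold and 0 at least 8-fold. Libraries of the gates did not overlap for 1260 of the 1300 genes and for 450 of the 474 genes, against 19.3% of all tested genes. The number of calls in each direction depended on the scaling. With library size alone the median over all tested genes moved, on the log2 scale, from -0.04 to -0.30, and 696 genes were higher in allSC and 1954 in nmSC (26.3% of the calls in allSC, in place of 73.3%). With a library size that ignores the most counted 50 genes, the median was -0.21 and the calls were 839 and 1196 (41.2% in allSC). Changes of gene lists below are therefore given also relative to the median of all genes. Counts of list members with library size alone stand against the 696 and 1954 of 18597 genes of that scaling, not against 6.99% and 2.55%. Fewer genes were called when the 4 libraries of either gate were reduced to 3: without nmSC replicate 2 the calls fell to 1051, without allSC replicates 1, 2 and 4 to 1092, 1124 and 1194, and without any of the other 4 libraries there were between 1256 and 1667.

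**Figure D1:**
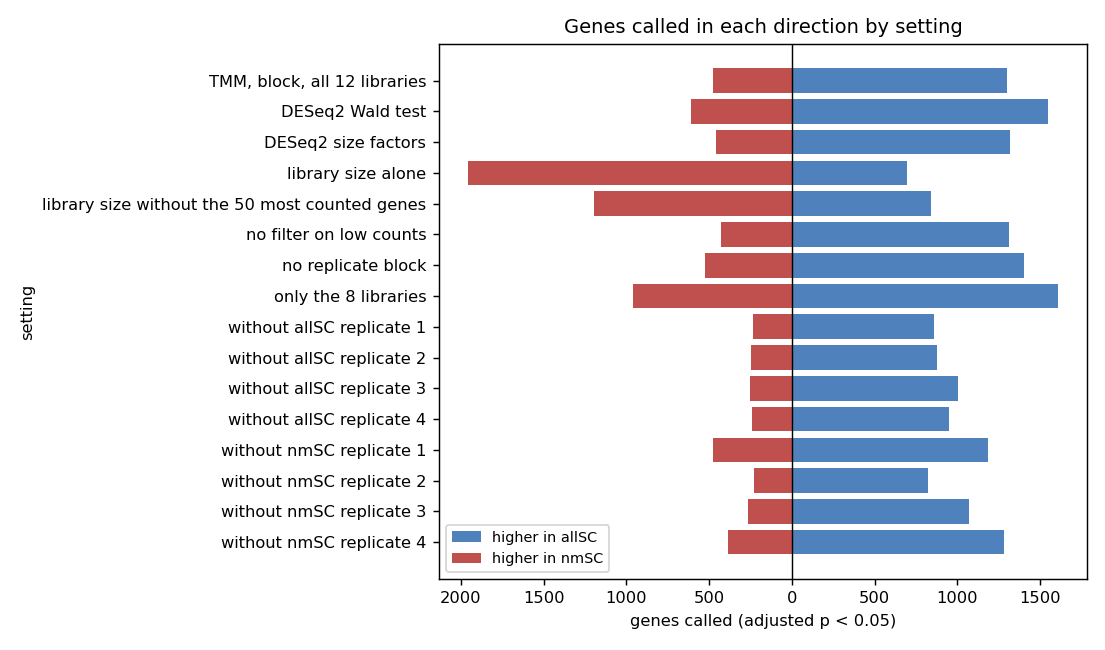
Number of genes called (adjusted p under 0.05, horizontal axis) as higher in allSC (blue, to the right) and higher in nmSC (red, to the left) under each setting. With TMM 1300 and 474 genes are called, and with library size alone 696 and 1954.

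Genes of myelin were higher in allSC: 18 of the 18 members of the list passed the test (16 with library size alone), where 6.99% of all tested genes did so in this direction. The median log2 fold change of the list was 1.32, which was 1.36 above the median of all genes. With library size alone this distance was 1.36 too. A change of scaling moves all genes nearly alike, so the distance could hardly change and is no check of the scaling. Mbp, myelin basic protein, which joins the cytoplasmic faces of the myelin membrane, had 29510.2, 25212, 25218 and 27182 CPM in allSC and 5184, 5261, 6377 and 5809 CPM in nmSC in the order of mice 1 to 4. Every allSC library thus lay above every nmSC library, with a ratio of the means of 4.73 (log2 fold change 2.24, SE 0.128, adjusted p = 1.74e-08). Pmp22, a membrane protein of compact myelin whose gene dose matters in hereditary neuropathy, had 39769, 36454, 38401 and 38879 CPM in allSC and 6212, 5849, 6159.7 and 7537 CPM in nmSC. Its allSC libraries differed from each other by far less than from those of nmSC (log2 fold change 2.58, SE 0.123, adjusted p = 2.67e-09). Ncmap, a protein of non-compact myelin, had 907, 826, 872 and 929 CPM in allSC and 179, 159, 223 and 185 CPM in nmSC (log2 fold change 2.25, SE 0.164, adjusted p = 1.74e-07).

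The largest change of the list belonged to Drp2, a partner of periaxin on the outer, abaxonal membrane of myelinating cells (ENSMUSG00000000223 on chromosome X of GRCm38, 134404551 to 134456573 on the plus strand). Drp2 had 533, 396, 385 and 397 CPM in allSC against 13.8, 12.9, 20.04 and 22.2 CPM in nmSC, with the library of mouse 1 above the others of its gate, and the log2 fold change was 4.60, SE 0.250, adjusted p = 9.84e-09. Without allSC replicate 1 it remained called, with an adjusted p of 3.56e-07. Gldn, gliomedin, which gathers sodium channels at the node, had 474, 448, 440.3 and 480.4 CPM in allSC and 67.3, 59.8, 72.99 and 92.95 CPM in nmSC (log2 fold change 2.65, SE 0.211, adjusted p = 4.51e-07). Pmp2, a fatty acid binding protein of myelin, had 1693, 1490.1, 1652 and 1712 CPM in allSC and 172, 141, 113 and 193 CPM in nmSC (log2 fold change 3.43, SE 0.154, adjusted p = 1.75e-09), but 88.1% of the 31-base words of its exons also lie in the overlapping Gm37389, so its reads cannot be told from those of that gene. The smallest change was that of Mpp6, a scaffold protein, at a log2 fold change of 0.43 (adjusted p = 0.0320), and this call was lost without any 1 of all libraries but nmSC replicate 1 (adjusted p between 0.0506 and 0.149) and with library size alone (0.310). The other 17 genes were called in each of the 8 fits with 1 library left out.

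**Figure D2:**
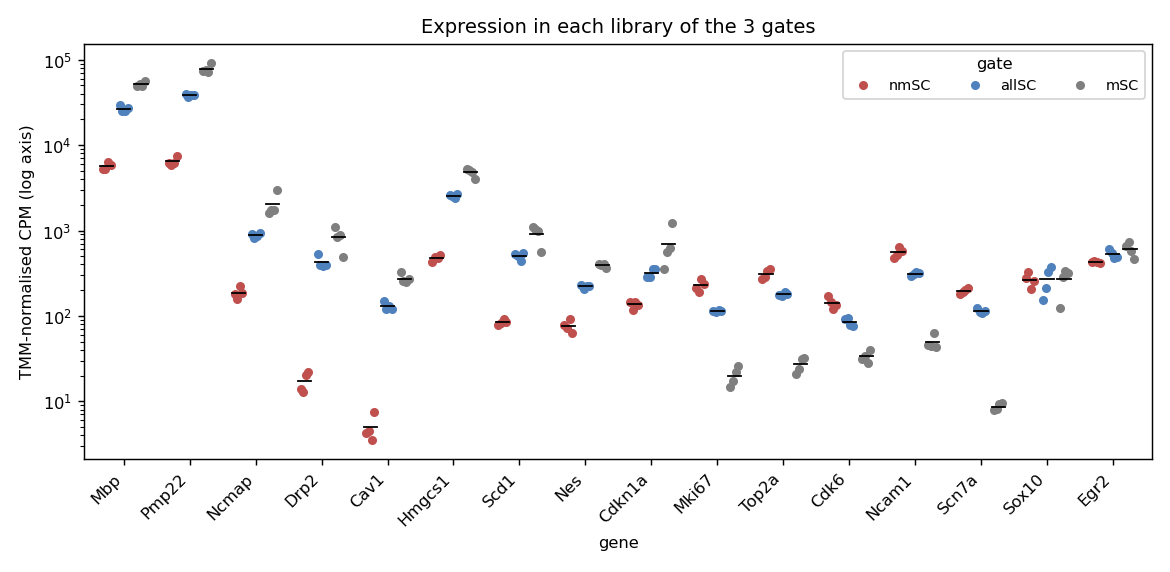
TMM-normalised CPM (log axis) of 16 genes in every library of nmSC (red), allSC (blue) and mSC (grey), with the mean of each gate as a bar. Genes of myelin and lipid synthesis and Nes and Cdkn1a are higher in every allSC library than in every nmSC library, those of proliferation and Ncam1 and Scn7a are lower, and Sox10 overlaps between the gates.

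Genes of sterol synthesis were also higher in allSC. Of 24 genes of the pathway and its control, 23 were higher in allSC, where 6.99% of all tested genes were, and 0 were lower. The median log2 fold change of the list was 1.80, which was 1.84 above that of all genes. The members spanned the route from acetyl units to cholesterol. Acat2, which condenses acetyl-CoA, had 209, 219, 233 and 252 CPM in allSC and 44.6, 51.4, 63.8 and 49.6 CPM in nmSC (log2 fold change 2.13), though it shares 43.8% of its 31-base words with Acat3. Hmgcs1, which makes HMG-CoA, had 2581, 2533, 2425 and 2689.9 CPM in allSC and 432, 494, 480.2 and 511 CPM in nmSC, so that the means differed 5.34-fold (log2 fold change 2.42, SE 0.130, adjusted p = 9.73e-09). Idi1, the isomerase of the isoprenoid units, had 298, 326, 280.5 and 302 CPM in allSC and 52.6, 68.9, 52.3 and 68.3 CPM in nmSC (log2 fold change 2.32), and it shares 27.1% of its words with other genes. Lss, which closes the sterol rings, changed most, with 451, 390.4, 386 and 426 CPM in allSC and 70.003, 72.3, 82.3 and 75.5 CPM in nmSC (log2 fold change 2.46, SE 0.132, adjusted p = 9.73e-09). In each of these genes the gates did not overlap. Srebf2, the transcription factor that activates the pathway, was the member that did not pass the test, with 168, 178, 188 and 230.4 CPM in allSC and 112, 143, 171 and 119 CPM in nmSC (log2 fold change 0.52, SE 0.183, adjusted p = 0.0977), and its libraries overlapped between the gates, though DESeq2 called it (adjusted p = 0.0496), as did a fit of only the 8 libraries (0.0235). Of the 23 calls, 22 held in each fit with 1 library left out. The exception was Scap, the escort protein of SREBP (log2 fold change 0.72, adjusted p = 0.0135), whose adjusted p was 0.0647 without allSC replicate 1, 0.100 without allSC replicate 4 0.0657 without nmSC replicate 2 and 0.100 with library size alone.

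Promoters of the pathway were searched for short motifs, which the choice of the list had not used. In the 250 bases before the start of RefSeq genes of GRCm38.p6, CCAAT, the motif of the factor NF-Y, was present on either strand in 16 of 22 promoters of the 18 sterol genes that could be matched (72.7%), and in 33.9% of all 32851 promoters. It was also in 17 of 28 promoters (60.7%) of the 23 genes matched in the replication list, a list whose called genes were higher in nmSC. CACCCCAC, a core of the sterol response element, was present in 2 of the 22 sterol promoters (9.09%, against 2.58% of all promoters). It was also in 2 of 21 promoters of the mitosis list (9.52%) and in 0 of 28 of the replication list. The 120 bases before the start are shown for the 3 called members with the largest change that hold CCAAT there, with CCAAT, on either strand, in capitals.
Lss, chr10:76531485-76531604, plus strand: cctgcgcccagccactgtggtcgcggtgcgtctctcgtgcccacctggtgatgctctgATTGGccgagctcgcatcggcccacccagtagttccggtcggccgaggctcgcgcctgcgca
Hmgcs1, chr13:119690231-119690350, plus strand: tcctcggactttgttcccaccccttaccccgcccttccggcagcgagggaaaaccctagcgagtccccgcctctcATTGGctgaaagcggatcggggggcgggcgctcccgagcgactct
Idi1, chr13:8885486-8885605, plus strand: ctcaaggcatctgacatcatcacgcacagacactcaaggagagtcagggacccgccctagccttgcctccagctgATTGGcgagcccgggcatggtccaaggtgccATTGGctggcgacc
The windows of Lss and Hmgcs1 hold 1 such motif each and that of Idi1 holds 2. A match describes the letters and no binding was measured.

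Enzymes of fatty acids and sphingolipids were higher in allSC in 18 of 21 cases, where 6.99% of all tested genes were, and 0 were higher in nmSC (median log2 fold change 0.99, 1.03 above that of all genes). With library size alone these counts were 15 and 1. Scd1 and Scd2 are desaturases that make oleate. Scd1 had 524, 503, 443 and 546 CPM in allSC and 77.3, 82.7, 91.6 and 84.6 CPM in nmSC (log2 fold change 2.59, SE 0.179, adjusted p = 1.14e-07), and Scd2 had 4059, 3858, 3618 and 4000.2 CPM in allSC and 1066, 1237, 1523 and 1427 CPM in nmSC (log2 fold change 1.56, SE 0.202, adjusted p = 7.97e-05). Elovl7, an elongase of long fatty acids, had 437, 373, 343 and 391 CPM in allSC and 98.1, 87.8, 101 and 123 CPM in nmSC (log2 fold change 1.91). Ugt8a makes galactosylceramide, the main glycolipid of myelin, and had 3016, 2723, 2805 and 2983 CPM in allSC and 491, 501, 488 and 735 CPM in nmSC (log2 fold change 2.38). In nmSC the library of mouse 4 was above the other 3, and all 4 lay far below allSC. The transcription factor of this pathway, Srebf1, did not pass the test, with 120.3, 128, 104 and 112 CPM in allSC and 83.1, 91.04, 133 and 98.4 CPM in nmSC (log2 fold change 0.21, SE 0.202, adjusted p = 0.646), and it changed sign to -0.047 with library size alone. The calls of 2 members with small changes depended on 1 library, and both were lost with library size alone (adjusted p = 0.203 and 0.256). Acaca (log2 fold change 0.52), which shares 33.5% of its words with other genes, Gm5182 foremost, was lost without allSC replicate 1, 2 or 4 or nmSC replicate 1 or 2 (adjusted p between 0.0613 and 0.121). Gal3st1 (log2 fold change 0.45) was lost without any 1 of the allSC libraries or without nmSC replicate 2 or 4 (adjusted p between 0.0599 and 0.170).

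The genes with the largest changes among those with at least 10 CPM were largely outside these lists. Cav1, caveolin 1, the coat protein of caveolae (ENSMUSG00000007655 on chromosome 6 of GRCm38, 17306335 to 17341452 on the plus strand), led them with 149, 119.5, 131 and 121 CPM in allSC and 4.23, 4.51, 3.51 and 7.45 CPM in nmSC, a ratio of the means of 26.4 (log2 fold change 4.72, SE 0.199, adjusted p = 1.36e-09). It was followed by Fam107a, an actin-associated protein, with 34.97, 30.9, 31.1 and 27.2 CPM in allSC and 1.83, 1.70, 0.224 and 1.19 CPM in nmSC (log2 fold change 4.69), where the nmSC library of mouse 3 was at the level of 3 counts. Cntf, ciliary neurotrophic factor, had 83.4, 64.3, 68.9 and 68.7 CPM in allSC and 3.17, 1.45, 3.22 and 4.55 CPM in nmSC (log2 fold change 4.56, SE 0.230, adjusted p = 4.17e-09). It shares 78.4% of its 31-base words with the overlapping gene Zfp91, so these reads cannot be assigned with certainty. Mme, neprilysin, a membrane peptidase, had 528, 479, 435 and 490.3 CPM in allSC against 29.4, 21.8, 28.3 and 34.1 CPM in nmSC (log2 fold change 4.08, SE 0.204, adjusted p = 4.07e-09).

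Among the 10 leading genes were also both chains of H2-DM, which loads peptides onto class II molecules. H2-DMb1 had 33.9, 31.6, 28.1 and 29.6 CPM in allSC and 1.54, 1.53, 2.02 and 1.65 CPM in nmSC (log2 fold change 4.17), and H2-DMa had 71.4, 56.4, 62.1 and 58.5 CPM in allSC and 3.27, 4.003, 4.41 and 5.01 CPM in nmSC (log2 fold change 3.91). H2-DMb1 shares 31.4% of its words with H2-DMb2, and H2-DMa overlaps Brd2. The summed level of 8 immune cell markers was between 21.6 and 31.8 CPM in allSC and between 20.2 and 30.0 CPM in nmSC, so it did not move with these genes. Frzb, a secreted antagonist of Wnt, had 26.01, 27.2, 24.9 and 25.5 CPM in allSC and 2.31, 1.28, 0.748 and 2.44 CPM in nmSC (log2 fold change 3.95). The remaining genes of the 10 were Lrtm2, a leucine-rich repeat protein, and Serpinb6b, a protease inhibitor, at log2 fold changes of 4.18 and 3.999. All 10 were called in each fit with 1 library left out.

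In the other direction, genes of mitosis were higher in nmSC. Of 24 members 23 passed the test, where 2.55% of all tested genes did so, 0 were higher in allSC, and for all 24 every nmSC library lay above every allSC library (7.36% of tested genes did so). The median log2 fold change was -0.72, which was 0.68 below that of all genes with TMM. With library size alone this distance was also 0.68, as a change of scaling can hardly alter it. These changes were smaller than those of the myelin genes. Mki67, which encodes the proliferation antigen Ki-67 (ENSMUSG00000031004 on chromosome 7 of GRCm38, 135689784 to 135716361 on the minus strand), had 214, 188, 272 and 236 CPM in nmSC and 113, 112, 117 and 114 CPM in allSC. The nmSC mean was 2.001 times that of allSC (log2 fold change -0.98, SE 0.141, adjusted p = 0.000226), and the allSC libraries lay close to each other while those of nmSC varied more. Top2a, topoisomerase II alpha, had 270.3, 286, 336 and 353 CPM in nmSC and 175, 172, 191 and 181 CPM in allSC (log2 fold change -0.78, SE 0.123, adjusted p = 0.000559). Cenpe and Cenpf, which bind kinetochores, changed by -0.95 and -0.94 (log2), and Tpx2, which builds the spindle, by -0.87. Cenpf had 105, 90.1, 111 and 115 CPM in nmSC and 54.5, 49.98, 64.4 and 51.7 CPM in allSC. Ube2c, the ubiquitin-conjugating enzyme of the anaphase-promoting complex, was the member not called, with 120.5, 108, 110.4 and 111 CPM in nmSC and 61.2, 70.95, 86.8 and 83.97 CPM in allSC (log2 fold change -0.62, SE 0.266, adjusted p = 0.195), though with library size alone it was (adjusted p = 0.0431), as it was in a fit of only the 8 libraries (0.00274). With 1 library left out, 12 of the 23 genes were called in every fit, Mki67, Top2a, Cenpe, Cenpf and Tpx2 among them. The count fell most without allSC replicate 3 (13 genes), allSC replicate 4 (14 genes) and nmSC replicate 2 (15 genes), and was between 16 and 21 without any other library.

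Promoters of these genes are known to carry CCAAT motifs with a further element, CHR (TTTGAA), to which the complexes that switch mitotic genes on and off bind. Within 250 bases before the start, CCAAT was found on either strand in 18 of 21 promoters of the 20 genes matched (85.7%), and CHR in 8 (38.1%, against 15.99% of all promoters). Both together were found in 8 promoters (38.1%, against 5.55% of all), and in no promoter of the list did matches to different motifs share bases. The last 120 bases before the start are shown for the 3 called members with the largest change that hold both, with matches to both motifs, on either strand, in capitals.
Top2a, chr11:99024190-99024309, minus strand: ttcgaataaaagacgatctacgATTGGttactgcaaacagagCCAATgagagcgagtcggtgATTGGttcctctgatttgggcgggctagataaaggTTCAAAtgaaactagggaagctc
Cdk1, chr10:69352913-69353032, minus strand: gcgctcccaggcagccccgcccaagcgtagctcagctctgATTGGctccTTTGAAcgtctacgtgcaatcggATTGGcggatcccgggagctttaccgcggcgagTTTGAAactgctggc
Cdc20, chr4:118437344-118437463, minus strand: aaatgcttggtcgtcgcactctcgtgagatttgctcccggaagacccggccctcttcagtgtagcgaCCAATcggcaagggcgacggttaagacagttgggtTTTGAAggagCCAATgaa
Cdk1 is the kinase that drives entry into mitosis, and Cdc20 activates the anaphase-promoting complex. Their log2 fold changes were -0.74 and -0.71.

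Of 28 genes of DNA replication 15 were higher in nmSC, where 2.55% of all tested genes were, 13 did not pass the test, 0 were higher in allSC, and all 28 had a negative log2 fold change (median -0.56, 0.52 below that of all genes). Uhrf1, which recruits the maintenance methyltransferase to new DNA, had 87.9, 101, 103 and 80.1 CPM in nmSC and 57.99, 59.8, 48.5 and 46.1 CPM in allSC (log2 fold change -0.80, SE 0.167, adjusted p = 0.00542). Rrm2, a subunit of ribonucleotide reductase, had 87.9, 106, 121 and 95.3 CPM in nmSC and 62.2, 64.2, 60.5 and 56.3 CPM in allSC (log2 fold change -0.75, SE 0.136, adjusted p = 0.00181). Pcna, the sliding clamp, was not called and its gates overlapped, with 94.8, 101, 80.8 and 81.3 CPM in nmSC and 71.98, 82.6, 70.5 and 72.6 CPM in allSC (log2 fold change -0.27, SE 0.150, adjusted p = 0.348). With library size alone Pcna was called (0.0259). It shares 23.3% of its words with the pseudogene Pcna-ps2. With TMM, 0 members of the lists of myelin, sterols, fatty acids and sphingolipids, mitosis and replication were called against the direction of the list by edgeR, and 0 passed at an unadjusted p under 0.05. By DESeq2 the count was also 0, and by edgeR with either library size scaling 1 enzyme of fatty acids or sphingolipids was higher in nmSC. The direction of each list was read from these same calls, and the lists were chosen with earlier results of these data known. Counts against the direction were thus largely set in advance and are a description. Of the 15 replication genes 4 were called in every fit with 1 library left out. The count was 5 without allSC replicate 3 or nmSC replicate 2, 6 without allSC replicate 1 or nmSC replicate 3, 8 without allSC replicate 4 or nmSC replicate 4, 9 without allSC replicate 2 and 17 without nmSC replicate 1, and with library size alone it was 27. The E2F motif (TTTCCCGC or TTTGGCGC on either strand), which marks genes of replication, was in 5 of 28 promoters (17.9%) of the 23 genes of this list that could be matched. It was in 1.30% of all promoters and in 0 of the 21 mitosis promoters.

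Among 20 genes that control entry into the cycle, 5 were higher in nmSC and 1 in allSC, where 2.55% and 6.99% of all tested genes were. With library size alone the counts were 13 and 1, against 1954 and 696 of all 18597 tested genes. The gene higher in allSC was Cdkn1a, the inhibitor p21, with 286, 287, 357 and 357 CPM in allSC and 146, 118, 147 and 133 CPM in nmSC (log2 fold change 1.22, SE 0.215, adjusted p = 0.00146), and its gates did not overlap. Of the genes higher in nmSC, Cdk6, a kinase partner of D cyclins, had 173, 147, 120.3 and 133 CPM in nmSC and 91.5, 95.1, 78.7 and 76.5 CPM in allSC (log2 fold change -0.74, SE 0.136, adjusted p = 0.00203), and E2f7, a repressing E2F factor, had 20.2, 17.7, 18.8 and 18.2 CPM in nmSC and 10.3, 9.25, 8.86 and 10.8 CPM in allSC (log2 fold change -0.94, SE 0.170, adjusted p = 0.00186). Both were called in every fit with 1 library left out. The other calls did not hold in this way. E2f8 (log2 fold change -0.89) was lost without allSC replicate 1 or nmSC replicate 2 or 3 (adjusted p between 0.0632 and 0.0750), Cdkn2c (-0.73) without allSC replicate 1, 2 or 4 or nmSC replicate 1 or 2 (between 0.0717 and 0.178) or without the block (0.152), and Ccnd3 (-0.50) without any 1 library except nmSC replicate 4 (between 0.0791 and 0.145). Cdkn1c, the inhibitor p57, was not called, with 136, 212, 362 and 366 CPM in allSC and 403, 586, 262 and 525 CPM in nmSC, which overlapped (log2 fold change -0.84, SE 0.273, adjusted p = 0.0702). It passed without allSC replicate 3 (adjusted p = 0.0463) and without nmSC replicate 3 (adjusted p = 0.00446) and by DESeq2 (adjusted p = 0.0127), and 27.2% of its words lie also in the overlapping Gm44732. Cdkn1c also passed with library size alone (0.0219), with a library size that ignores the most counted 50 genes (0.0383), with no filter (0.0348) and in a fit of only the 8 libraries (0.0347), but not without the block (0.209). Ccnd1, cyclin D1, was not called either (log2 fold change -0.50, adjusted p = 0.0643) but passed without nmSC replicate 4 (adjusted p = 0.0194) and without the block (0.0470), by DESeq2 (0.0390), with library size alone (0.00423), with a library size that ignores the most counted 50 genes (0.0109) and in a fit of only the 8 libraries (0.00285). It shares 22.3% of its words with another gene. Cdk4 was close to equal in the gates (log2 fold change -0.12, adjusted p = 0.704), though with library size alone it was called (0.0492).

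Of 15 genes of immature Schwann cells tested, 6 were higher in nmSC, where 2.55% of all tested genes were, 1 was higher in allSC and 8 did not pass the test (median log2 fold change -0.58, 0.54 below that of all genes). Ncam1, a neural cell adhesion molecule, had 475, 519.6, 635 and 580.1 CPM in nmSC and 295, 308, 327 and 314 CPM in allSC (log2 fold change -0.82, SE 0.120, adjusted p = 0.000274). Scn7a, a sodium channel of non-neuronal cells, had 181, 191, 200.1 and 213 CPM in nmSC and 124, 111, 107 and 114 CPM in allSC, and libraries of mSC were between 7.95 and 9.49 CPM (log2 fold change of allSC over nmSC -0.78, SE 0.120, adjusted p = 0.000449). Chl1, a close relative of L1cam, changed by -0.67 and Ednrb, the endothelin receptor B, by -0.63 (log2, adjusted p = 0.00619 and 0.00132). These calls held whichever library was left out. Ngfr, the receptor p75NTR, had 208, 243, 323 and 250.5 CPM in nmSC and 152, 156, 179.9 and 183 CPM in allSC (log2 fold change -0.59, SE 0.174, adjusted p = 0.0438), with no overlap. Its call was lost without any 1 library except allSC replicate 4 and nmSC replicate 1 (adjusted p between 0.131 and 0.189). L1cam had 135, 170.1, 179.9 and 166 CPM in nmSC and 106, 95.7, 101 and 96.2 CPM in allSC (log2 fold change -0.71, SE 0.190, adjusted p = 0.0258), and was lost without any 1 library except nmSC replicate 1 (adjusted p between 0.0531 and 0.133). Nes, nestin, an intermediate filament named after neural stem cells, went the other way, with 233, 209, 226 and 227 CPM in allSC, 79.04, 72.9, 91.8 and 62.5 CPM in nmSC and between 364 and 402 CPM in mSC (log2 fold change 1.56, SE 0.124, adjusted p = 4.65e-07). Jun was not called (log2 fold change -0.48, adjusted p = 0.0554) but was without nmSC replicate 1 (adjusted p = 0.0163) and by DESeq2 (0.0343). It was also called with library size alone (0.00435), with a library size that ignores the most counted 50 genes (0.00912) and in a fit of only the 8 libraries (0.00645), but not without the block (0.380).

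Of 24 transcription factors of the lineage 1 was higher in allSC and 4 were higher in nmSC, where 6.99% and 2.55% of all tested genes were. With library size alone the counts were 1 and 11, against 696 and 1954 of all 18597 tested genes. Sox10 had 152, 214, 330.3 and 372 CPM in allSC and 279, 326, 207 and 253 CPM in nmSC, with wide and overlapping spreads, and a log2 fold change of -0.11, SE 0.243, adjusted p = 0.869 that turned positive (0.0030) without the block. It was also positive without allSC replicate 1 (0.02), allSC replicate 2 (0.04) or nmSC replicate 1 (0.25). Egr2, the activator of myelin genes, did not overlap between the gates, with 603, 548, 473 and 485 CPM in allSC and 429.7, 443, 427 and 414 CPM in nmSC, but did not pass the test (log2 fold change 0.29, SE 0.124, adjusted p = 0.183). Pou3f1, a factor of promyelinating cells, had 29.2, 40.1, 45.7 and 50.04 CPM in allSC and 94.8, 53.8, 45.5 and 45.1 CPM in nmSC (log2 fold change -0.54, SE 0.255, adjusted p = 0.244), the nmSC library of mouse 1 being the highest. Nab1, a co-factor of Egr proteins, was the gene higher in allSC, with 33.6, 25.2, 28.2 and 32.02 CPM against 6.06, 8.43, 6.28 and 7.92 CPM in nmSC (log2 fold change 2.05, SE 0.158, adjusted p = 3.27e-07). Higher in nmSC were Hes1, a target of Notch, Tcf19, which rises as cells enter S phase, Myc and Egr1, at log2 fold changes of -0.78, -0.69, -0.61 and -0.62. Each of these calls was lost in at least 1 fit with a library left out: Tcf19 without nmSC replicate 2 (adjusted p = 0.0521), Egr1 without allSC replicate 2 (adjusted p = 0.0512), Hes1 without any 1 library except allSC replicate 3 and nmSC replicate 4 (between 0.0820 and 0.117) and Myc without allSC replicate 1, 2 or 4 or nmSC replicate 2 or 3 (between 0.0517 and 0.0857). Without the block Myc was not called either (0.0632).

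**Figure D3:**
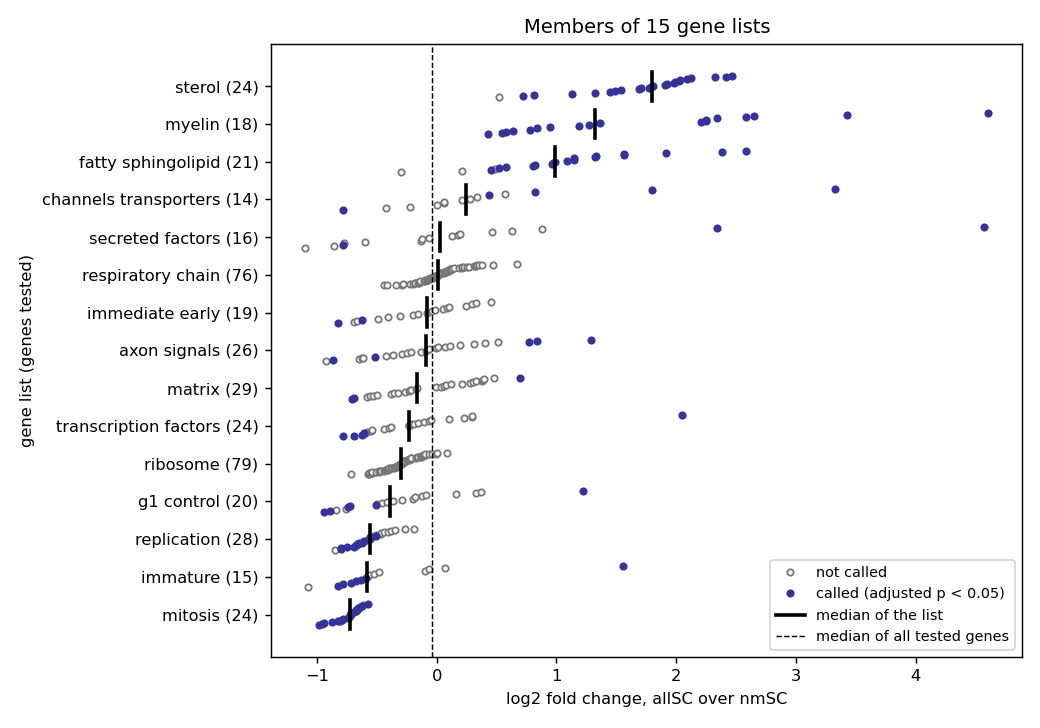
Log2 fold change of allSC over nmSC (horizontal axis) for every tested member of 15 gene lists, filled where called and open where not, with the median of each list as a bar and that of all tested genes as a dashed line. All members of myelin lie right of 0 and all members of mitosis and replication left of it, while the median of the respiratory chain is close to that of all genes.

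Genes by which Schwann cells meet axons, matrix and other cells were called in both directions. Of 26 genes of signalling with axons, 3 were higher in allSC and 2 in nmSC, where 6.99% and 2.55% of all tested genes were. With library size alone the counts were 3 and 5, against 696 and 1954 of all 18597 tested genes. Nrcam, an adhesion molecule of the node, had 265, 235, 218 and 225 CPM in allSC and 80.96, 88.2, 109 and 106 CPM in nmSC (log2 fold change 1.29, SE 0.185, adjusted p = 0.000229). Adam10, a sheddase, and Sema3b, a semaphorin, changed by 0.84 and 0.77 (log2, adjusted p = 0.00112 and 0.00368). Lgr5, a receptor of R-spondins, was higher in nmSC, with 167, 211, 251 and 227 CPM against 113, 117, 122 and 113 CPM in allSC and between 8.43 and 13.3 CPM in mSC (log2 fold change of allSC over nmSC -0.86, SE 0.126, adjusted p = 0.000270). Notch1 (log2 fold change -0.52) was called too, but not without allSC replicate 1 or 4 or nmSC replicate 2 (adjusted p between 0.0504 and 0.0720). Erbb3, the neuregulin receptor, overlapped between the gates, with 648, 596, 651 and 673 CPM in allSC and 638, 699.6, 879 and 831 CPM in nmSC (adjusted p = 0.560).

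With library size alone, 2 and 2 of 16 secreted factors tested were higher in allSC and nmSC, against 696 and 1954 of all 18597 tested genes. With TMM 2 were higher in allSC and 1 in nmSC, where 6.99% and 2.55% of all tested genes were. They were Cntf, described above, Fgf7, a growth factor of epithelia, with 40.1, 38.7, 36.7 and 46.6 CPM in allSC and 8.85, 6.64, 7.25 and 9.30 CPM in nmSC (log2 fold change 2.34, SE 0.139, adjusted p = 2.50e-08), and in the other direction Ptn, pleiotrophin, with 149, 160.4, 152 and 192 CPM in nmSC and 73.7, 96.7, 107 and 105 CPM in allSC (log2 fold change -0.78, SE 0.136, adjusted p = 0.00129). Of 14 channels and transporters 4 were higher in allSC and 1 in nmSC, where 6.99% and 2.55% of all tested genes were. With library size alone the counts were 3 and 2, against 696 and 1954 of all 18597 tested genes. The largest change was that of the potassium channel Kcnk1, with 164, 158, 174 and 179 CPM in allSC and 19.04, 14.1, 16.5 and 18.1 CPM in nmSC (log2 fold change 3.33, SE 0.134, adjusted p = 1.04e-09). Slc36a2, an amino acid transporter, had 573, 486, 479 and 471 CPM in allSC and 128, 129, 168 and 154 CPM in nmSC (log2 fold change 1.80), and Atp1b3, a subunit of the sodium pump, changed by 0.82 (log2). Slc2a1, the glucose transporter GLUT1, was called at a log2 fold change of 0.44, but not without any 1 library except nmSC replicate 4 (adjusted p between 0.0810 and 0.153), and not with library size alone (0.358). The channel higher in nmSC was Scn7a.

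Of 29 genes of the extracellular matrix and its receptors, 1 was higher in allSC and 2 in nmSC, where 6.99% and 2.55% of all tested genes were. With library size alone the counts were 0 and 7, against 696 and 1954 of all 18597 tested genes. No call of this list held in every fit with 1 library left out. Dag1, dystroglycan, the laminin receptor, had 1912, 1695, 1746 and 1936 CPM in allSC and 983, 1035, 1316 and 1186 CPM in nmSC (log2 fold change 0.70, SE 0.175, adjusted p = 0.0180), and lost its call without allSC replicate 1 or 4 or nmSC replicate 2 (adjusted p between 0.0760 and 0.128) and with library size alone (0.121). Col3a1, a fibrillar collagen, had 5993, 7222, 10166 and 8082 CPM in nmSC and 4830.0, 4632, 4926 and 4843 CPM in allSC (log2 fold change -0.69, SE 0.197, adjusted p = 0.0376). It and Col6a1 (log2 fold change -0.71) lost their calls without any 1 library except nmSC replicate 1 (adjusted p between 0.0518 and 0.179, and between 0.0667 and 0.210), and Col6a1 also without the block (0.116). Of 19 immediate early genes, which respond to tissue dissociation, 2 were higher in nmSC, where 2.55% of all tested genes were. They were Ier2 (log2 fold change -0.82, SE 0.176, adjusted p = 0.00631) and Egr1. In this list 0 genes were higher in allSC by edgeR (1 by DESeq2, and 1 at an unadjusted p under 0.05).

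Genes of the ribosome and of the respiratory chain were not called by edgeR in either direction (0 of 79 and 0 of 76), by DESeq2 likewise (0 and 0). At an unadjusted p under 0.05, 0 and 0 ribosomal genes and 4 and 0 genes of the respiratory chain were higher and lower in allSC. For both lists the nmSC library of mouse 1 stood apart. Its ribosomal genes summed to 19623 CPM, against 13232, 13477 and 11167 CPM in the other nmSC libraries and between 10807 and 13602 CPM in allSC. The median log2 fold change of the list, -0.30, turned to 0.25 without this library, and that of the respiratory chain went from 0.01 to 0.50, where 2 of its genes were called.

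Markers of other cells that a sort may let pass were at low levels with exceptions. The 8 endothelial markers summed to between 19.0 and 22.0 CPM in allSC and between 12.6 and 23.7 CPM in nmSC, and 1 was called, Kdr, higher in allSC (log2 fold change 1.04), while Pecam1 and Cldn5 reached at most 2.77 and 1.11 CPM in the 8 libraries. Of the 7 endothelial markers tested, the other 6 had log2 fold changes below 0 (median of the 7 -0.31), and 1 was higher in nmSC at an unadjusted p under 0.05. Of 6 immune markers tested, 0 were called by edgeR and by DESeq2 and 0 passed at an unadjusted p under 0.05, and Aif1 and C1qa reached at most 0.385 and 0.670 CPM. The 8 fibroblast markers summed to between 6864 and 7319 CPM in allSC, between 9409 and 14277 CPM in nmSC and between 893 and 2254 CPM in mSC. Nearly all of this came from Col1a1 (between 2037 and 2455 CPM in allSC, between 2911 and 4089 CPM in nmSC) and Col3a1, of which edgeR called Col3a1 and DESeq2 both. Pdgfra, Cd34 and Dcn reached at most 3.37, 3.74 and 13.6 CPM in the 8 libraries, and none of them was called. The sum of this list thus moved with the genes higher in nmSC, and its part in the results was not tested. Among 6 mural cell markers Tagln was higher in allSC (log2 fold change 1.34) and Cspg4 in nmSC (-0.54), the latter called in none of the fits with 1 library left out (adjusted p between 0.0523 and 0.180) nor without the block (0.0817). Acta2 reached at most 1.46 CPM, and Tagln shares 62.2% of its words with other genes. Of 7 neuronal markers 2 were higher in allSC, where 6.99% of all tested genes were. They were Nefl and Nefm, which share words with each other, at up to 6.63 and 5.24 CPM (log2 fold changes 1.36 and 1.45). The other 5 were not called, and 3 of the 7 had log2 fold changes below 0 (median of the 7 0.12). The perineurial marker called was Slc2a1, and of 4 red blood cell markers tested 0 were called by edgeR and by DESeq2 and 0 passed at an unadjusted p under 0.05, and the 5 listed summed to at most 30.1 CPM. Of 4 melanocyte markers tested Pmel was higher in allSC, with 59.2, 59.6, 45.6 and 56.6 CPM against 15.2, 24.5, 18.2 and 16.3 CPM in nmSC (log2 fold change 1.59, SE 0.156, adjusted p = 4.85e-06), but it overlaps Cdk2 and Dgka. The other 3 tested had log2 fold changes below 0 (median of the 4 -0.24), and Tyr reached at most 2.98 CPM. Of 7 Schwann cell markers 3 were higher in allSC, S100b (log2 fold change 1.87) among them, and 0 in nmSC by edgeR, by DESeq2 or at an unadjusted p under 0.05. In both gates the defining markers Sox10 and Erbb3 were present in every library.

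**Figure D4:**
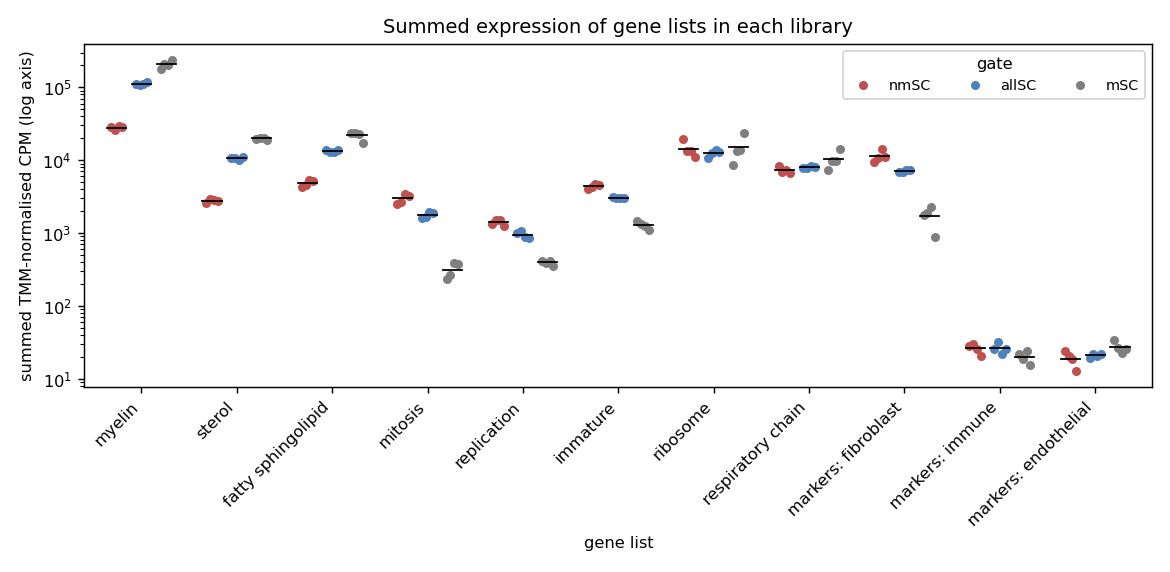
Summed TMM-normalised CPM (log axis) of 11 gene lists in every library of nmSC (red), allSC (blue) and mSC (grey), with gate means as bars. Myelin and lipid lists are higher in allSC than in nmSC, mitosis, replication, immature and fibroblast marker lists are lower, and the nmSC library of mouse 1 is the highest nmSC point for the ribosome.

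The mean of allSC lay between those of nmSC and mSC for 1290 of the 1300 genes higher in allSC and for 452 of the 474 genes higher in nmSC. These genes were chosen by their difference between allSC and nmSC, and the allSC gate includes both clouds. Such counts were thus largely set in advance. As a description, the allSC mean was placed on a scale on which the nmSC mean is 0% and the mSC mean is 100%. Because the 3 gates share the scale and allSC enters it, no test was made. Over the 1300 genes higher in allSC the median position was 46.2% (quartiles 40.7% and 52.8%), and in single allSC libraries it was 49.0%, 43.3%, 43.8% and 48.1% for mice 1 to 4. Over the 474 genes higher in nmSC it was 49.5% (quartiles 44.9% and 57.6%), and 53.3%, 50.1%, 48.0% and 48.4% in the libraries. The medians of the lists were close to these, at 45.5% for myelin, 43.5% for sterols, 50.4% for fatty acids and sphingolipids, 44.9% for mitosis and 45.9% for replication, and at 43.7% for genes of immature cells. On the same linear scale, the mSC mean of Mki67 was 19.99 CPM, that of Mbp 52034 CPM and that of Cav1 274 CPM, which put allSC at 54.8%, 45.5% and 46.5%. With library size alone the medians were 59.6% and 57.2%.

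The largest changes among the genes higher in nmSC included 1 that did not lie between the gates. Gm10801, a predicted gene, had 9584, 14054, 9315 and 14848 CPM in nmSC, 4246, 5138, 3276 and 5246 CPM in allSC and between 3670.2 and 9281 CPM in mSC (log2 fold change of allSC over nmSC -1.40, SE 0.190, adjusted p = 0.000131), but it shares 36.2% of its words with other genes, Gm10800 foremost. Cit, citron kinase, which acts in cytokinesis, had 25.1, 20.9, 29.6 and 20.3 CPM in nmSC and 9.54, 8.78, 11.3 and 10.4 CPM in allSC (log2 fold change -1.26, SE 0.202, adjusted p = 0.000660). Nav2, a microtubule protein of growing axons, had 68.8, 51.2, 64.4 and 56.7 CPM in nmSC and 33.9, 30.6, 27.4 and 25.1 CPM in allSC (log2 fold change -1.04). Brip1, a helicase of DNA repair, and C130089K02Rik changed by -0.99 and -1.10 (log2). Zfp36l1, which promotes the decay of mRNA, had 87.9, 57.8, 54.8 and 57.7 CPM in nmSC and 28.5, 30.4, 37.3 and 35.2 CPM in allSC (log2 fold change -0.98), and the nmSC library of mouse 1 was far above the others. It shares 59.99% of its words with other genes, Gm26669 foremost. With Mki67 and the following 3 these were the 10 leading genes of this direction. Pcdh11x, a protocadherin, at -1.03 (log2), was lost without allSC replicate 1 or 2 or nmSC replicate 3 (adjusted p between 0.0678 and 0.0752). Gm42899, at -1.002 (log2), was lost without allSC replicate 1 or 2 or nmSC replicate 4 (between 0.0597 and 0.0796). Cldn11, a claudin, at -1.01 (log2), was lost without allSC replicate 1, 2 or 4 or nmSC replicate 1 or 3 (between 0.0686 and 0.133).

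A mixture of the cells of both other gates holds no more of an RNA than the higher of them, so genes beyond both were looked for. As the allSC gate includes both clouds, the outcome was largely set by the gating and is a description. By edgeR 0 genes were higher and 0 lower in allSC than in both nmSC and mSC at an adjusted p under 0.05 in each comparison, and by DESeq2 also 0 and 0. At an unadjusted p under 0.05 in each comparison there were 14 and 23, and no number expected by chance was computed. With a library size that ignores the most counted 50 genes, 1 gene was higher. In single comparisons, 38.6% of the tested genes differed between mSC and nmSC and 15.6% between allSC and mSC.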

How the data were processed

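RNA of sorted Schwann cells was measured in 12 libraries made with the Smart-Seq2 protocol, which copies polyadenylated RNA over its full length and amplifies it by PCR without molecular identifiers. Tagmentation libraries of this kind do not mark the strand, so overlapping genes cannot be told apart by it. The authors aligned the reads with STAR (2.6.1c per the submitters' processing notes), counted them per gene with featureCounts and deposited raw counts without normalization for 25700 genes. The processing notes name the mouse build GRCm38.p5, while the methods name a human build. Options for multi-mapping reads are not given in the sources used here. Symbols were found for 25587 and GENCODE M21 positions (GRCm38) for 25664 identifiers, and promoter sequences came from RefSeq (GRCm38.p6).

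From the counts, genes were filtered by filterByExpr, scaled by TMM and tested by the quasi-likelihood test of edgeR 4.0.16 (R 4.3.3) in 1 model over the 12 libraries with gate and mouse number, two-sided, at an adjusted p under 0.05 (Benjamini-Hochberg over all tested genes). The mouse number is the subject in the labels, and each sample came from the suspension of 1 mouse. Deviations of same-numbered allSC and nmSC libraries from their gate means correlated at -0.09, 0.17, -0.08 and 0.07. Those of libraries with different numbers correlated at between -0.13 and 0.08, so the pairing rests on the labels and not on these correlations. Libraries of 1 gate differed by more than sampling noise (chi-square of 4.03 to 21.1 per degree of freedom), so none was counted as a repeat of another. DESeq2 1.42.0 served as an alternative. The steps were tested on simulated data. Alternatives covered scaling, filter, test, block, the libraries in the fit and leaving out each library in turn.

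Named genes are the markers of the study, the 10 genes with the largest change in each direction with at least 10 CPM and no overlap of the gates, and members of 24 gene lists (up to 4 called members per direction with at least 5 CPM and up to 3 uncalled), with others where a count needed them. Mpp6, Scap, Acaca, Gal3st1, Cdk1 and Cdc20 were named after their values were seen, as were Pecam1, Cldn5, Aif1, C1qa, Pdgfra, Cd34, Dcn, Acta2 and Tyr for their low levels. The members and lists were chosen with earlier results of these data known. For 2 marker genes no value is reported here, though they are counted in their lists and in the counts over named genes. Shares of 31-base words were computed from the exons of GENCODE M21.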

Additional observations from a re-analysis of the deposited data

Results flagged for a closer look

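Of the 200 sets of 4 libraries looked at, 5 held 1 library whose distance to the nearest other library exceeded the 95% limit of Dixon's test for 4 samples. Chance alone sets about 1 in 20 such sets apart. In allSC the library of mouse 1 was above the others for Drp2, with 533 CPM against 385 to 397 CPM, and for Slc36a2, with 573 CPM against 471 to 486 CPM, and below them for Gal3st1, with 162 CPM against 183 to 187 CPM. In nmSC, Zfp36l1 was at 87.9 CPM in the library of mouse 1 and at 54.8 to 57.8 CPM in the others, and Ugt8a was at 735 CPM in the library of mouse 4 and at 488 to 501 CPM in the others. Of these calls, those of Drp2, Slc36a2, Zfp36l1 and Ugt8a held in each fit without 1 library, and that of Gal3st1 did not.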

How the results depend on the processing

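Of 1500 values (100 named genes under 15 alternatives), 1335 kept their direction and their side of the threshold, 131 lost the call, 29 gained it and 5 reversed. The reversals were those of Sox10, at 0.0030 with no replicate block and positive without allSC replicate 1 or 2 or nmSC replicate 1 (between -0.35 and 0.25 over all fits without 1 library), and of Srebf1, at -0.047 with library size alone, and none of them passed the test. With no replicate block 1928 genes were called, of which 1717 were shared with the 1774 of the fit with the block. Cdkn2c, Myc, Col6a1 and Cspg4 then lost their calls (adjusted p between 0.0632 and 0.152), Ccnd1 gained one (adjusted p = 0.0470), and the block changed no other call of a named gene. The difference of 4.49 percentage points in the share of the 50 most counted genes had p = 0.125 in the exact permutation test within mouse pairs, an alternative chosen after seeing the data. Scaling moved the counts most. With library size alone 696 genes were higher in allSC and 1954 in nmSC, and the median positions of allSC were 59.6% and 57.2%. Without the 50 most counted genes in the library size there were 839 and 1196, and 1 gene was higher in allSC than in both other gates. Under both, Dag1, Slc2a1, Mpp6, Scap, Acaca and Gal3st1 were not called (adjusted p up to 0.358). A fit of only the 8 libraries, which estimates the spread without mSC, called 1607 genes higher in allSC and 962 in nmSC. Leaving out 1 library gave between 1051 and 1667 calls, between 819 and 1282 of them higher in allSC and between 232 and 478 higher in nmSC, with fewer samples in each such fit. DESeq2's Wald test called 2154 genes, its size factors 1775 and the fit with no filter 1739. Genes near 3 counts are limited by depth.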
